A study of Mus musculus with 7 samples.

Results

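The proteasome and its immune form were followed as a family of genes across the cell types of mouse livers with induced tumours. A gene was a member when its symbol began with Psma, Psmb, Psmc, Psmd or Psme followed by a digit and was not marked as a pseudogene. This rule found 46 of the 55357 features in the tables. The 5 immune members are Psmb8, Psmb9, Psmb10, Psme1 and Psme2, and 31 of the other 41 encode constitutive subunits of the core or of its regulatory cap. The remaining symbols are the cap-assembly chaperones Psmd5, Psmd9 and Psmd10, the activators Psme3 and Psme4, the tissue-restricted core subunits Psma8 and Psmb11, the gene copy Psme2b, and Psmc3ip and Psme3ip1, which match the rule by name but encode no subunit.

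Both groups of mice received plasmids for Nras and C-myc by hydrodynamic injection into the tail vein, which drives tumours in the liver, and the 4 IL-2/CD25 samples differed from the 3 control samples by an added IL-2/CD25 expression plasmid. Tissue taken 2 weeks later was dissociated and sequenced as single cells by a 3′ droplet method, in 1 batch by its label. The control samples therefore carry the same oncogenes, and no sample without them was analysed. The labels give no strain, age, sex or promoter, do not say which cells the plasmids entered, and do not say whether each sample is 1 animal, so p-values measure only the spread between these samples.

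The proteasome is the protease complex that degrades proteins tagged with ubiquitin. Its core is a barrel of alpha and beta rings, with the active sites on Psmb5, Psmb6 and Psmb7, and a cap of ATPases (Psmc genes) and other subunits (Psmd genes) binds, unfolds and feeds in the substrate. In immune cells, and in other cells exposed to interferon gamma, Psmb8, Psmb9 and Psmb10 take the places of Psmb5, Psmb6 and Psmb7 in newly built cores, which changes the peptides made for display on MHC class I. Psme1 and Psme2 encode the alpha and beta chains of PA28, an interferon-inducible activator that caps the core without using ATP.

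Promoter sequence from RefSeq (build GRCm38.p6) is shown for the active-site genes, whose levels the results turn on. Psmb9 and the peptide transporter gene Tap1 lie head to head within the MHC locus, and the 225 bases between their starts are printed on the Psmb9 strand, with the GC box GGGCGG in capitals. For Psmb8 the 50 bases hold the interferon gamma element TTCNNNGAA, and for Psmb5 and Psmb6 they hold the antioxidant response core TGACNNNGC, the kind of element read by NRF factors. Capitals mark the match in each.
Psmb9 (chr17:34187331-34187555, minus strand): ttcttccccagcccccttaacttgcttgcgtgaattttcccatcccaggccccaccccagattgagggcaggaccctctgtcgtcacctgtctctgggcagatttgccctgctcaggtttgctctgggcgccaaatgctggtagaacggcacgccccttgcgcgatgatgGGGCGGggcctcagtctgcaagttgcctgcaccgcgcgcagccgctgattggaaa
Psmb8 (chr17:34198075-34198124, plus strand): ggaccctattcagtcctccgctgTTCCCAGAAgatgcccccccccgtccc
Psmb5 (chr14:54618015-54618064, minus strand): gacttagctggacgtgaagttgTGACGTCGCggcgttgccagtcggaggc
Psmb6 (chr11:70525307-70525356, plus strand): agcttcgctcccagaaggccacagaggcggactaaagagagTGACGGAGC

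Motifs were searched on both strands in the 250 bases before each start, and 39 of the 46 members had an entry. TTCNNNGAA was found for 1 member, Psmb8, against 7.02% of the 32851 promoters in the table. TGACNNNGC was found for 5 members, 4 of them constitutive subunits, against 10.2% of all promoters. GGGCGG was found for 22 members, 3 of them immune and 14 constitutive subunits (Psmb9 and its partner Psmb6 among them), against 32.7%. The interferon-stimulated core, GAAA followed after any 2 bases by GAAA, was found for 3 members, none of them immune, against 2.98%. A match describes the letters and does not show that a factor binds.

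After filtering, 57784 cells remained and 51125 of them passed the gate of 1 cell class by marker genes that include no member. The control libraries held 76438139 to 181755269 unique molecular identifiers (UMIs, counted RNA molecules) and the IL-2/CD25 libraries 37653600 to 47881379, and any pair of libraries shared 14 to 37 cell barcodes. UMIs were summed per sample and class, 12 classes had enough cells in both groups to be tested, and levels are given in CPM, the UMIs of a gene scaled to the same total in each class and sample. Tumour-like cells were reached in only 2 of the IL-2/CD25 samples, numbers 1 and 3. In those, Nras stood at 151 and 58.1 CPM against 3342, 3202 and 3299 in controls, Myc at 40.7 and 1.38 against 2405, 2543 and 2171, and stellate and fibroblast markers at 35.8 and 544 CPM against a control mean of 20.8. The levels of the introduced oncogenes thus go against the tumour-like label in the IL-2/CD25 samples, and the difference between groups in this class cannot be told apart from a difference in which cells it holds.

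Across the control cell types 4 of the 5 immune members were highest in cDC1 (the cross-presenting conventional dendritic cells) and in mature, Ccr7-expressing dendritic cells, and lowest in tumour-like cells. Psmb10 was the exception in cDC1 and in tumour-like cells. Each class was compared with the mean of the others within the same samples. All 5 immune members were higher in mature dendritic cells, where 20.7% of all genes were called higher, and 4 of 5 were higher in cDC1, against 29.5%. All 5 were also higher in CD8 T cells (23.0% of all genes). All 5 were lower in B cells (background 15.6%) and in neutrophils (33.1%), 3 of 5 in monocytes and macrophages (23.6%) and 4 of 5 in tumour-like cells (35.3%). With only the 11 immune classes compared, 4 of 5 were higher in CD8 T cells (2820 of 9739 genes), since Psme1 was not called (0.20, edgeR adjusted p = 0.0616). In that comparison 4 of 5 were lower in monocytes and macrophages (2839 of 9739 genes), Psme2 included (-0.44). Psmb10 was not called in cDC1 there (0.10, edgeR adjusted p = 0.362), below its difference of 0.59 in CD8 T cells. Psmb8 stood at 968, 895 and 1082 CPM in the cDC1 of the 3 control samples and at 77.7, 86.8 and 73.4 CPM in their neutrophils. These ranges were far apart, and the log2 difference from the other classes was 1.74 in cDC1 and -1.67 in neutrophils (edgeR adjusted p = 1.26e-20 and 5.01e-16).

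Psmb9, which replaces the Psmb6 active site, set cDC1 apart further: its log2 difference was 2.29 there, and 1.85 when only the 11 immune classes were compared (edgeR adjusted p = 4.64e-24). Psme2, the PA28 beta chain, was the member that mature dendritic cells carried most above other classes, at 1007, 1274 and 1087 CPM in the 3 controls and a log2 difference of 2.73 (edgeR adjusted p = 4.91e-28). In tumour-like cells Psmb8 stood at 17.1, 14.4 and 11.5 CPM and Psmb9 at 5.74, 5.47 and 4.20 CPM, with log2 differences of -4.77 and -4.82. RNA of other cells caught in the droplet was estimated at 10.1, 11.5 and 16.2% of UMIs there, and these CPM include it. Psmb10, which replaces Psmb7, went the other way in those cells: it stood at 199.7, 136 and 200.2 CPM and was higher than in the other classes by 0.68 (edgeR adjusted p = 7.7e-10). The 31 constitutive subunits were all higher in control tumour-like cells (background 43.9%), with a median log2 difference of 0.95, and 25 of 31 were higher in monocytes and macrophages (background 35.6%).

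**Figure D1:**
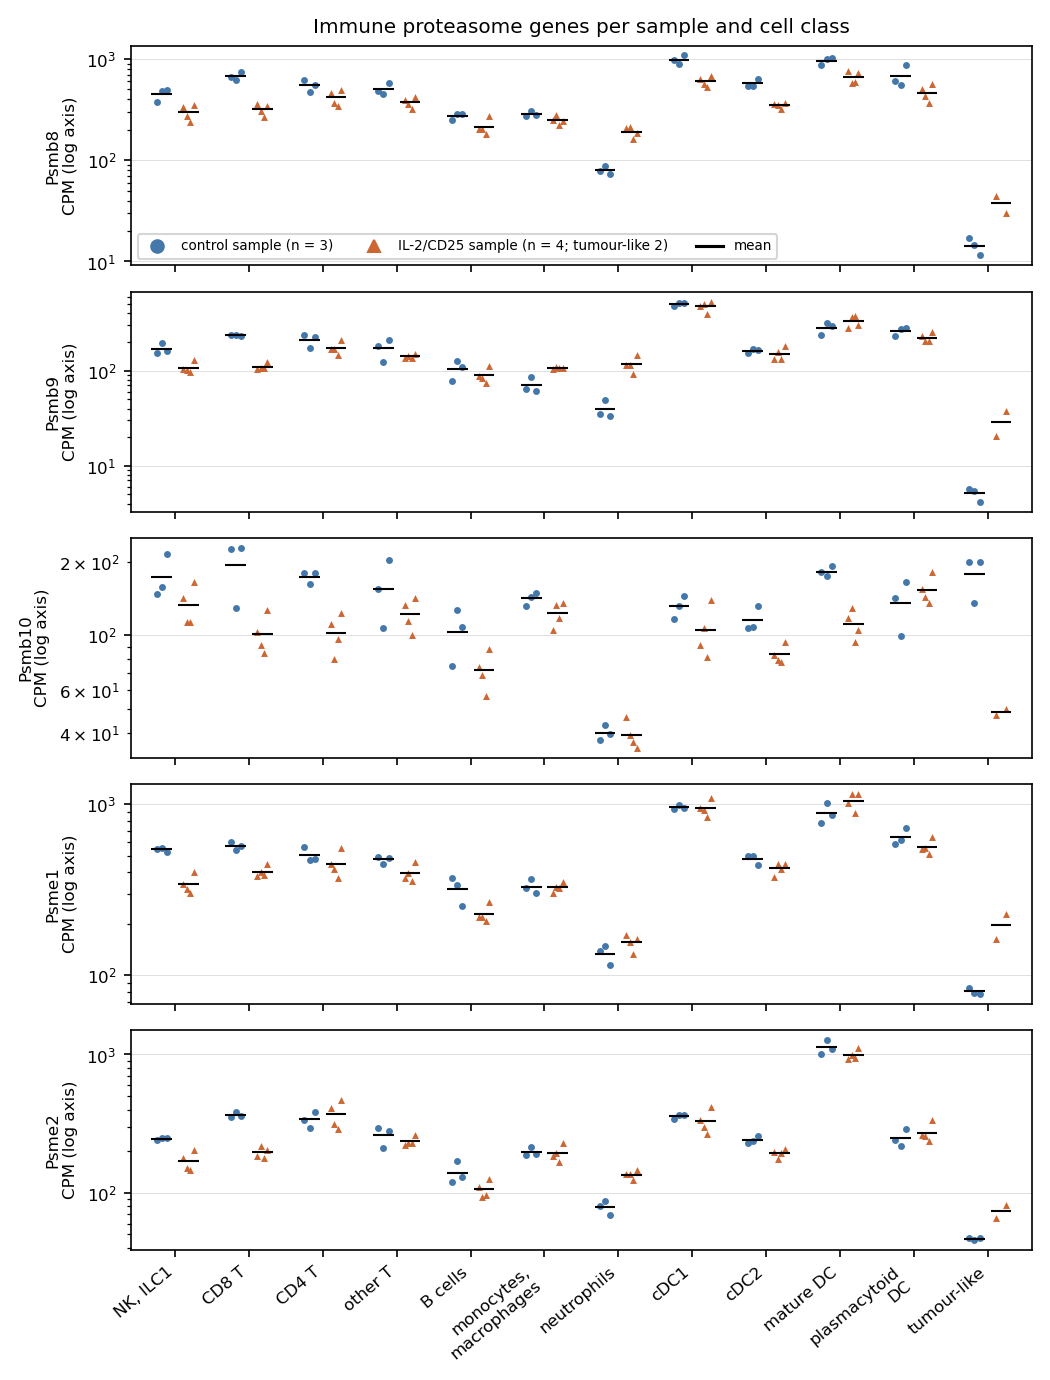
Level of each immune member (CPM, log axis, 1 panel a gene) in every sample of each class, with control and IL-2/CD25 samples as separate points and group means as bars. For Psmb8 the neutrophil points of the IL-2/CD25 samples, 161 to 214 CPM, all lie above those of the controls, 73.4 to 86.8 CPM, while in CD8 T cells they all lie below.

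With IL-2/CD25, the constitutive subunits fell in every class tested, and none of the 31 rose in any. All 31 fell in CD8 T cells, with a median log2 change of -1.35 (0.07 over all genes), where 27.5% of all genes were called lower. All 31 also fell in monocytes and macrophages (median -0.84, background 26.9%). In cDC1 and cDC2 30 fell (medians -0.79 and -0.95, backgrounds 18.2% and 22.3%), and in neutrophils 29 (-0.80, 29.2%). In NK cells and ILC1 27 fell (median -0.71, background 21.1%), in B cells 25 (-0.82, 13.5%) and in T cells that were neither CD8 nor CD4 22 (-0.72, 9.14%). The counts were smallest in CD4 T cells, where 17 of 31 fell (-0.77, 5.38%), in mature dendritic cells, 15 of 31 (-0.59, 11.4%), and in plasmacytoid dendritic cells, 8 of 31 (-0.40, 5.97%).

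Tumour-like cells gave 31 of 31 lower, with a median of -1.83 against -0.20 over all genes and a background of 33.9%. The fits scale libraries by TMM, which assumes that most genes do not differ. With scaling by summed UMIs alone the tumour-like median was -0.99 and the neutrophil median -0.58, so CPM values and fitted changes of these 2 classes differ in size. The summed level of the 31 subunits went, without overlap between groups, from 6229 ± 335 to 2557 ± 161 CPM in CD8 T cells (mean ± SD, n = 3 and 4) and from 5575 ± 144 to 3289 ± 200.3 CPM in monocytes and macrophages. In a bulk sum, fewer cells with a transcript and less transcript per cell cannot be told apart.

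**Figure D2:**
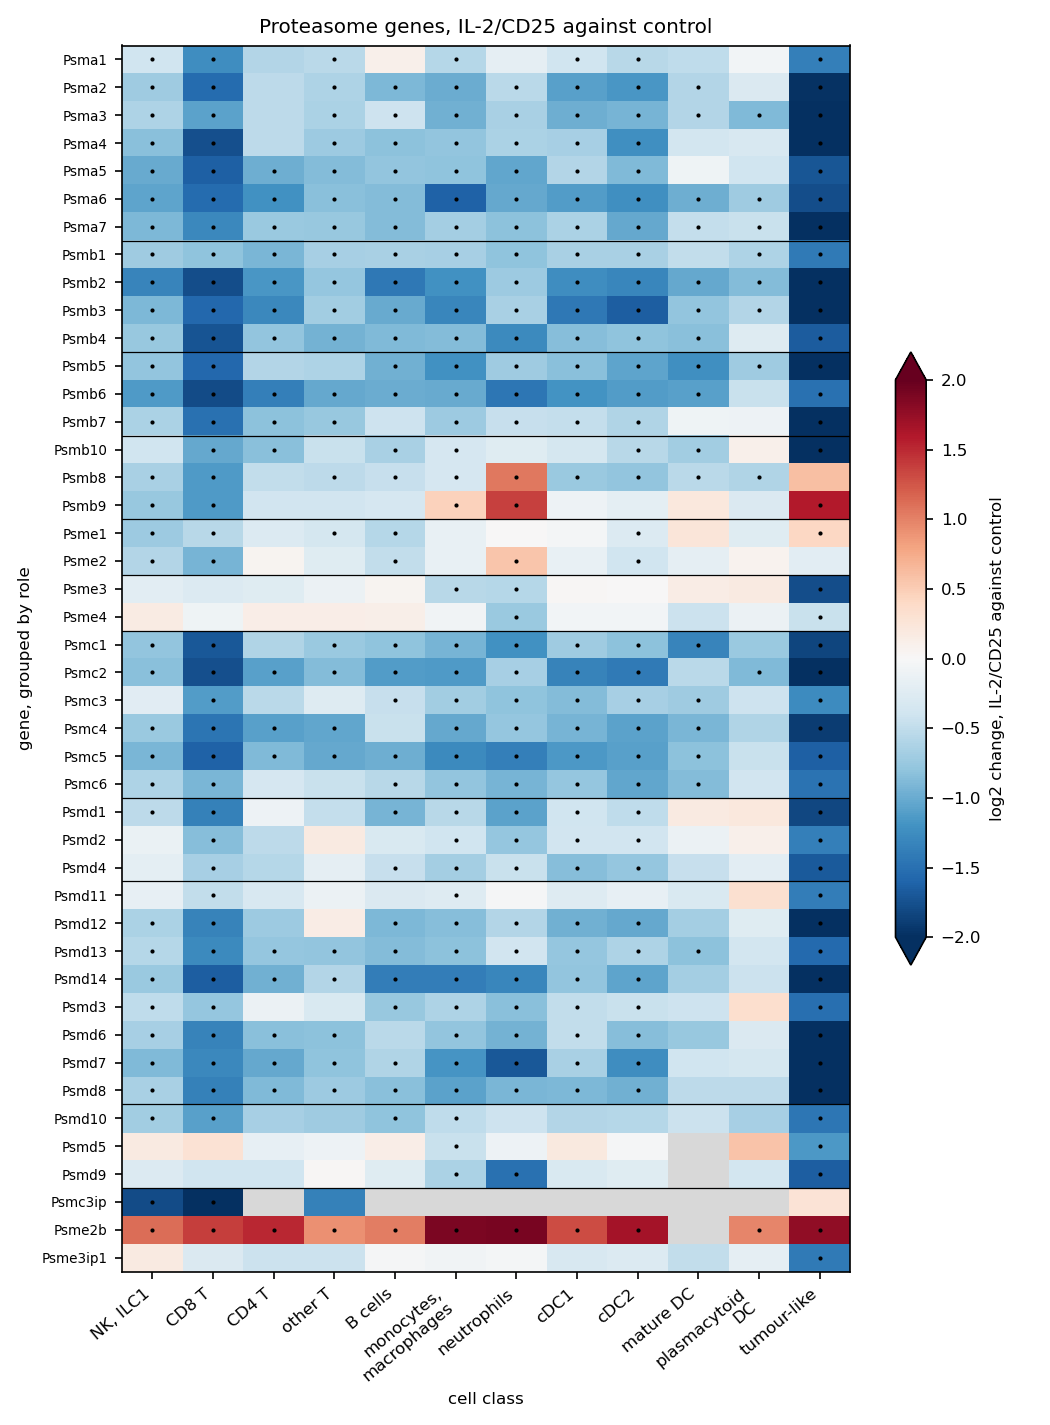
Log2 change (IL-2/CD25 against control, colour scale from -2 to 2) of each member, in rows grouped by role, in the 12 classes, with dots where the edgeR adjusted p was under 0.05 and grey where the gene was not tested. All 31 constitutive subunits are called lower in CD8 T cells and 8 of 31 in plasmacytoid dendritic cells, with some uncalled changes above 0 (Psmd11 up to 0.32), while Psmb8, Psmb9 and Psme2 are higher in neutrophils and Psme2b is higher in every class where it was tested.

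Of the members, 4 fell in all 11 immune classes: the alpha ring subunits Psma6 and Psma7 and the beta ring subunits Psmb2 and Psmb3, which carry no active site. The share of all genes that fell in all 11 was not counted. In plasmacytoid dendritic cells, where 5.97% of all genes were called lower, only 2 members were called without control sample 3. The pattern over all 11 classes thus does not hold for all 4 genes in that setting. Psmb2 was followed in the 2 cytotoxic classes. In NK cells and ILC1 it stood at 123, 156 and 174 CPM in the control samples and 65.8, 52.6, 51.8 and 79.9 CPM in the IL-2/CD25 samples. The groups did not overlap, and the log2 change was -1.32 ± 0.18 (SE; edgeR adjusted p = 9.11e-05). Its CD8 T cell values were 186, 213 and 225 CPM in the control samples and 65.6, 55.5, 56.8 and 69.9 CPM in the IL-2/CD25 samples, again without overlap, with a change of -1.78 ± 0.13 (SE; edgeR adjusted p = 5.49e-08). Psma6 stood at 329, 341 and 331 CPM in the control samples and 120.0, 110.0, 112 and 131 CPM in the IL-2/CD25 samples in monocytes and macrophages. Its change there, -1.62 ± 0.10 (SE; edgeR adjusted p = 2.72e-07), separated the groups fully. Psmb3 changed by -1.43 in cDC1 and -1.65 in cDC2, where it was the largest fall among the other members named by the rule.

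The 6 ATPases that unfold the substrate (Psmc1 to Psmc6) all fell in CD8 T cells (background 27.5%), monocytes and macrophages (26.9%), neutrophils (29.2%), cDC1 (18.2%) and cDC2 (22.3%), and 1 of 6 fell in plasmacytoid dendritic cells (5.97%). Psmc2 stood at 98.0, 95.6 and 113 CPM in the control samples and 27.1, 30.9, 30.6 and 36.2 CPM in the IL-2/CD25 samples in CD8 T cells, with no overlap and a log2 change of -1.75 ± 0.13 (SE; edgeR adjusted p = 7.57e-08). Among the 8 lid subunits, Psmd14 encodes the enzyme that strips ubiquitin from the substrate. It stood at 127, 122 and 129.7 CPM in the control samples and 46.8, 46.4, 57.1 and 58.8 CPM in the IL-2/CD25 samples in monocytes and macrophages and changed by -1.39 ± 0.11 (SE; edgeR adjusted p = 1.68e-06), without overlap. Psmd11, another lid subunit, was lower in only 2 of the 11 immune classes, with changes from -0.49 to 0.32. The base subunits Psmd1, Psmd2 and Psmd4 hold the cap together and bind ubiquitin. Of these, 3 of 3 were lower in CD8 T cells (background 27.5%) and 2 of 3 in B cells (13.5%). In NK cells and ILC1 1 of 3 was (21.1%), and 0 of 3 in CD4 (5.38%) and other T cells (9.14%).

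Of the constitutive active sites, Psmb6 was called lower in 10 of the 11 immune classes, Psmb5 in 9 and Psmb7 in 8. In these classes 5.38 to 29.2% of all genes were called lower. The Psmb7 call was lost in 9 of 17 alternatives in CD4 T cells. Of 18 alternatives it was lost in 7 in neutrophils, 4 in other T cells and 2 each in NK cells and ILC1 and cDC1. The Psmb5 call was lost in 4 in plasmacytoid dendritic cells, 2 in NK cells and ILC1 and 1 in B cells. No Psmb6 call was lost. Psmb6 stood at 273, 253 and 281 CPM in the control samples and 79.8, 76.7, 73.2 and 92.4 CPM in the IL-2/CD25 samples in CD8 T cells. Every IL-2/CD25 sample lay below every control, and the change was -1.78 ± 0.11 (SE; edgeR adjusted p = 2.02e-08). In neutrophils it stood at 89.3, 90.8 and 100.003 CPM in the control samples and 34.4, 41.3, 43.0 and 40.6 CPM in the IL-2/CD25 samples, also without overlap, and changed by -1.45 ± 0.14 (SE; edgeR adjusted p = 2.36e-06). Psmb5 stood at 169, 175 and 181 CPM in the control samples and 82.9, 89.2, 72.5 and 86.9 CPM in the IL-2/CD25 samples in monocytes and macrophages and changed by -1.21 ± 0.10 (SE; edgeR adjusted p = 2.2e-06), with the groups apart. Psmb7 changed by -1.49 ± 0.12 (SE; edgeR adjusted p = 1.21e-07) in CD8 T cells, from values of 117 to 137 CPM in controls and 42.0 to 49.3 CPM in IL-2/CD25 samples. In mature and plasmacytoid dendritic cells the groups overlapped for Psmb7, and its changes of -0.08 and -0.10 were not called.

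In CD8 T cells all 5 immune members fell along with the constitutive subunits (background 27.5%). Psmb8 stood at 665, 621 and 741 CPM in the control samples and 358, 308, 269.9 and 339 CPM in the IL-2/CD25 samples, with no overlap and a log2 change of -1.13 ± 0.13 (SE; edgeR adjusted p = 3.76e-06). Psmb9 stood at 238, 240.0 and 230.2 CPM in the control samples and 104, 107, 106 and 124 CPM in the IL-2/CD25 samples, and its change was -1.14 ± 0.10 (SE; edgeR adjusted p = 3.99e-07). Psmb10 changed by -1.03 ± 0.18 (SE; edgeR adjusted p = 0.000206), from 129.9 to 229 CPM in controls and 84.8 to 127 CPM in IL-2/CD25 samples. The groups did not overlap for any of these 3 active sites. Of the PA28 chains, Psme2 changed by -0.93 ± 0.10 (SE; edgeR adjusted p = 3.23e-06) and Psme1 by -0.55 ± 0.10 (SE; edgeR adjusted p = 0.00036), likewise without overlap. In cells of the class with at most 1 UMI of proliferation genes, 22 of 31 constitutive subunits still fell and their median was -0.85. Of all genes, 885 of 10576 were called lower in those cells, against 3089 of 11223 with dividing cells. Psmb9 was no longer called in them (-0.47). Dividing cells made up 55.8 to 64.7% of control and 13.0 to 19.5% of IL-2/CD25 CD8 T cells.

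NK cells and ILC1 were the largest class in the IL-2/CD25 samples (13837 cells, against 489 in controls), and 4 of 5 immune members fell there (background 21.1%). Psmb9 stood at 155, 194 and 162 CPM in the control samples and 104, 101.03, 95.8 and 129 CPM in the IL-2/CD25 samples and changed by -0.76 ± 0.14 (SE; edgeR adjusted p = 0.000852). Psme1 stood at 549, 556 and 528 CPM in the control samples and 343, 319, 304 and 404 CPM in the IL-2/CD25 samples and changed by -0.73 ± 0.12 (SE; edgeR adjusted p = 0.00033). Neither gene overlapped between groups. Psmb8 changed by -0.64 and Psme2 by -0.59, both called, whereas Psmb10, at 147 to 216 CPM in controls and 113 to 165 CPM in IL-2/CD25 samples, overlapped and was not called. Without dividing cells 17 of 31 constitutive subunits fell in this class, against 27 with them. Of all genes, 1354 of 12846 were then called lower, against 2843 of 13460. Neither Psmb9 (-0.40) nor Psme2 (-0.26) was called without dividing cells. Without control sample 2 neither Psmb8 (-0.52) nor Psme2 (-0.53) was called. Dividing cells were 26.1 to 43.5% of the class in controls and 12.4 to 18.5% with IL-2/CD25.

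In neutrophils 3 of 5 immune members rose, where 26.8% of all genes were called higher, while 29 of the 31 constitutive subunits fell. Psmb8 stood at 77.7, 86.8 and 73.4 CPM in the control samples and 207, 214, 161 and 184 CPM in the IL-2/CD25 samples. All 4 IL-2/CD25 samples lay above all 3 controls, and the log2 change was 1.05 ± 0.11 (SE; edgeR adjusted p = 7.53e-06). Psmb9 stood at 35.4, 48.9 and 33.5 CPM in the control samples and 115, 115, 91.6 and 147 CPM in the IL-2/CD25 samples, with no overlap and a change of 1.36 ± 0.17 (SE; edgeR adjusted p = 2.35e-05). Psme2 stood at 80.7, 87.7 and 68.6 CPM in the control samples and 137, 136, 124 and 146 CPM in the IL-2/CD25 samples, with no overlap and a change of 0.56 ± 0.11 (SE; edgeR adjusted p = 0.000742). Psmb10 and Psme1 overlapped between groups, at 37.4 to 43.0 CPM in controls and 34.7 to 46.2 CPM in IL-2/CD25 samples for Psmb10 and at 114 to 148 CPM in controls and 134 to 172 CPM in IL-2/CD25 samples for Psme1, and neither was called. Over the other settings tried, the Psmb8 change ranged from 0.85 to 1.34 and the Psmb9 change from 1.18 to 1.71, all called.

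The monocyte and macrophage class held 1 immune member that rose. Psmb9 stood at 64.2, 85.4 and 61.3 CPM in the control samples and 104, 110.0, 107 and 106 CPM in the IL-2/CD25 samples, without overlap, and its log2 change was 0.46 ± 0.13 (SE; edgeR adjusted p = 0.0108), against a background of 27.3% of genes called higher. It was not called without control sample 1 (0.38), without IL-2/CD25 sample 4 (0.40), in thinned libraries (0.38) or without the low-count filter (0.30). Psmb8 and Psmb10 changed by -0.34 and -0.34, both called lower although their groups overlapped; with scaling by summed UMIs (-0.20 for each) or in thinned libraries (-0.23 and -0.26) neither was called, nor was Psmb10 without control sample 3 (-0.31). Psme1 and Psme2 were not called. In tumour-like cells Psmb9 stood at 5.74, 5.47 and 4.20 CPM in the control samples and 20.4 and 37.4 CPM in the IL-2/CD25 samples and changed by 1.58 ± 0.31 (SE; edgeR adjusted p = 0.00438), and Psme1 changed by 0.41 (background 26.2%; its call was lost in 8 of 16 alternatives, with 0.16 without IL-2/CD25 sample 3), while Psmb10 stood at 199.7, 136 and 200.2 CPM in the control samples and 47.2 and 49.8 CPM in the IL-2/CD25 samples and changed by -2.74 ± 0.23 (SE; edgeR adjusted p = 0.000135). Over the 15 other settings tried, the Psmb9 change of tumour-like cells ranged from 1.14 to 11.6, so its size is not settled. Psme2 of these cells went from a mean of 46.7 to 73.8 CPM. Its fitted change was -0.21 under TMM and 0.65 under scaling by summed UMIs, so it has no settled direction.

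Among dendritic cells, Psmb8 fell in all 4 classes. In cDC1 it stood at 968, 895 and 1082 CPM in the control samples and 636, 563, 524 and 682 CPM in the IL-2/CD25 samples, without overlap, and changed by -0.75 ± 0.12 (SE; edgeR adjusted p = 0.00017). In cDC2 it stood at 544, 544 and 633 CPM in the control samples and 358, 354, 319 and 370.3 CPM in the IL-2/CD25 samples, also without overlap, and changed by -0.80 ± 0.10 (SE; edgeR adjusted p = 1.06e-05). Its changes in mature and in plasmacytoid dendritic cells were -0.54 and -0.60, and the groups overlapped only in plasmacytoid dendritic cells. Without control sample 3 neither was called (-0.47 and -0.37). Psmb9 was called in none of the 4, with changes from -0.29 to 0.21. Psme1 and Psme2 were called lower in cDC2 alone (-0.28 and -0.41), and Psmb10 in cDC2 (-0.55) and mature dendritic cells (-0.69). In CD4 T cells only Psmb10 fell (-0.84), in other T cells Psmb8 and Psme1 (-0.53 and -0.35), and in B cells every immune member but Psmb9, from -0.64 for Psmb10 to -0.46 for Psmb8. Without control sample 3, Psmb10 was not called in CD4 T cells (-0.78), B cells (-0.54) or mature dendritic cells (-0.64), nor was Psmb8 in other T cells (-0.39) or B cells (-0.37), Psme2 in B cells (-0.50) or Psme1 in other T cells (-0.31). Over all 18 alternatives the call was lost in 9 for Psme1 in other T cells (down to -0.10), and in B cells in 7 for Psme2, 6 for Psmb8 and 5 for Psmb10. Psmb10 lost its call in 4 alternatives in CD4 T cells and 2 in mature dendritic cells. The Psme1 call of cDC2 was lost in 5 of the 18. Among these were the fits without control sample 1, control sample 2 or IL-2/CD25 sample 1, at changes of -0.23 to -0.27.

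Whether a change differed between classes was tested directly, as the log2 change in a class minus the mean change in the other 11 classes; values in brackets leave tumour-like cells out of the fit. A difference above 0 is a larger rise or a smaller fall than in the other classes, and one below 0 a larger fall or a smaller rise. In CD8 T cells the difference was below 0 for all 5 immune members, against 12.2% of all genes. Psmb9 differed by -1.30 [-1.17], Psmb8 by -0.84 [-0.78] and Psme2 by -0.80 [-0.83]. It was also below 0 for 25 of 31 constitutive subunits there. In neutrophils the difference was 1.48 [1.61] for Psmb8 (edgeR adjusted p = 4.76e-16), 1.39 [1.59] for Psmb9 (edgeR adjusted p = 3.22e-13) and 0.76 [0.80] for Psme2 (edgeR adjusted p = 5.86e-08), against a background of 8.07%.

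Psmb9 also differed in monocytes and macrophages, by 0.39 [0.55] (background 8.54%). In NK cells and ILC1 the difference was below 0 for 4 of 5 (background 6.88%), with Psmb9 at -0.84 [-0.68] and Psme1 at -0.59 [-0.53]. Psmb8 differed by -0.55 [-0.38] in cDC1 (background 5.67%) and by -0.51 [-0.33] in cDC2 (background 3.1%). Psme1 differed by 0.51 [0.65] in mature dendritic cells (background 3.26%) and by -0.42 in B cells (background 2.63%), where it was no longer called without tumour-like cells [-0.22]. Plasmacytoid dendritic cells stood apart for Psmb10, by 0.90 [0.78] (background 5.97%), and for 19 of 31 constitutive subunits [16], which fell less there or did not fall (median difference 0.58 over the 31). Without tumour-like cells in the fit, Psme2 in plasmacytoid dendritic cells [0.45] and Psmb9 in mature dendritic cells [0.47] were called as well, and Psmb8 in NK cells and ILC1 [-0.23] was not. In tumour-like cells the difference was above 0 for 4 immune members (background 19.6%) and below 0 for Psmb10 (-1.87, background 21.3%).

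**Figure D3:**
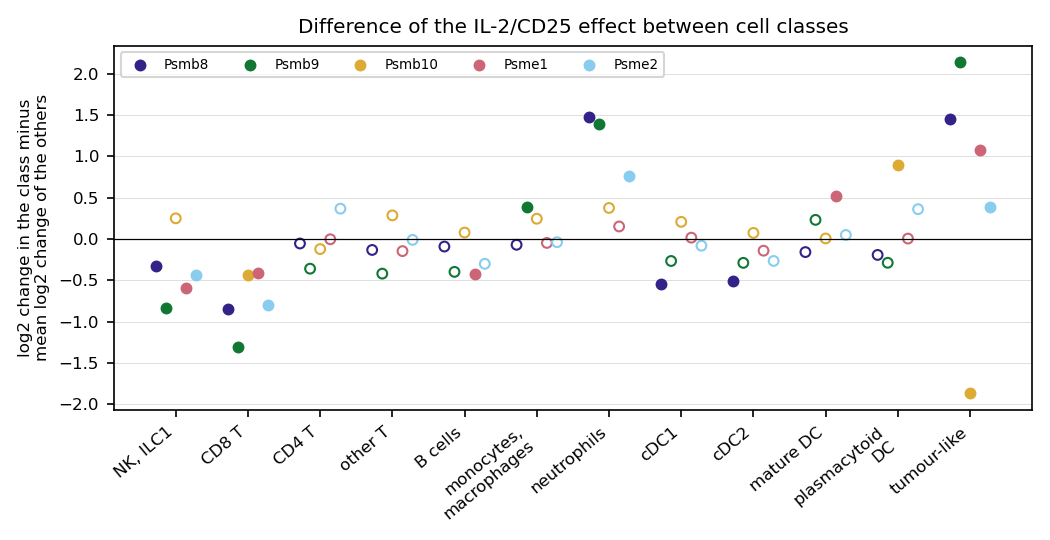
Difference of the IL-2/CD25 effect (log2 change in a class minus the mean of the other 11 classes) for the 5 immune members in 12 classes, with filled points where the edgeR adjusted p was under 0.05 and open points elsewhere. Among the immune classes neutrophils stand highest for Psmb8 and Psmb9 (1.48 and 1.39) and CD8 T cells lowest (-0.84 and -1.30).

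The balance between immune and constitutive active sites was described by the share of Psmb8, Psmb9 and Psmb10 among the UMIs of all 6 active-site genes. In neutrophils this share was 39.4% ± 3.29 in controls and 69.2% ± 2.57 with IL-2/CD25 (mean ± SD over 3 and 4 samples). Single samples ranged from 36.3 to 42.9% and from 66.4 to 71.9%, so the groups did not overlap. Monocytes and macrophages went from 50.3% ± 1.32 to 64.2% ± 1.45, and CD8 T cells from 65.2% ± 2.13 to 73.3% ± 1.10, both without overlap. The shares were higher with IL-2/CD25, with no overlap, in 10 of the 11 immune classes, with differences of 4.41 to 29.8 percentage points. After subtraction of estimated free RNA the difference was 1.29 points in B cells (5.06 before), 2.14 in NK cells and ILC1 (4.41), 2.57 in other T cells (4.81) and 3.47 in cDC2 (5.38). In non-dividing cells it was 3.71 in CD8 T cells (8.03), 2.50 in NK cells and ILC1 and 3.41 in cDC2. In plasmacytoid dendritic cells the groups overlapped, at 75.1% ± 1.83 and 75.8% ± 0.54. Tumour-like cells had the lowest shares of the tested classes, 23.5% ± 2.83 in controls and 27.1% ± 1.96 in 2 IL-2/CD25 samples. In 9 of these 10 classes the immune members were not higher in sum, and the share changed with a larger loss of UMIs from the constitutive genes: in CD8 T cells the summed constitutive subunits were 2.44 times and the summed immune members 1.81 times higher in controls. A share of 3′ UMIs is not a share of protein.

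**Figure D4:**
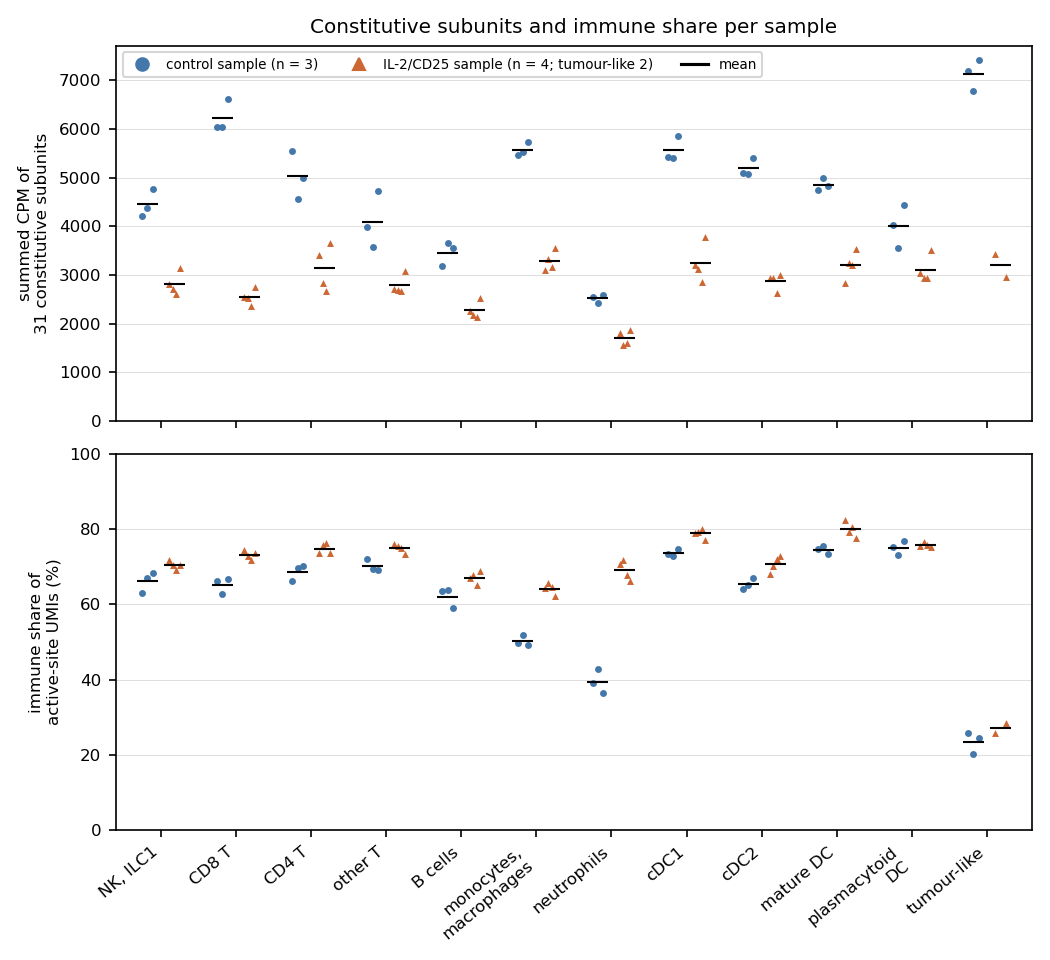
Summed level of the 31 constitutive subunits (CPM) and immune share of active-site UMIs (percent) in every sample of each class, with group means. The neutrophil shares move from 36.3 to 42.9% in controls to 66.4 to 71.9% with IL-2/CD25, the widest gap among the classes shown.

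Several members were called lower in few classes, which for genes of low count does not show that they did not fall. The activators Psme3 and Psme4 (PA28 gamma and PA200), which serve the nuclear proteasome, were lower in 2 and 1 of the 11 immune classes. The chaperone Psmd5 was lower in 1 (changes from -0.44 to 0.57) and Psmd9 in 2 (-1.49 to 0.02) of the 10 where each was tested. Psme3ip1 was called in none of the immune classes (edgeR), with changes from -0.49 to 0.18. Psmc3ip, which acts in meiotic recombination, was tested in 4 classes and called lower in 2. In the 3 immune classes among them its changes were large, from -2.75 to -1.36. Psme2b was the opposite case: it was higher in all 11 classes where it was tested, by 0.92 to 1.90 in the 10 immune ones. Genes called higher made up 21.3% in NK cells and ILC1, 28.4% in CD8 T cells, 7.35% in other T cells, 4.03% in CD4 T cells, 9.38% in B cells, 17.8% in cDC1, 21.0% in cDC2 and 4.59% in plasmacytoid dendritic cells; in mature dendritic cells, where it was not tested, they made up 10.7%. In CD8 T cells Psme2b stood at 25.4, 21.7 and 17.3 CPM in the control samples and 49.0, 60.9, 62.7 and 61.9 CPM in the IL-2/CD25 samples, without overlap, and changed by 1.38 ± 0.16 (SE; edgeR adjusted p = 6e-06). Psme2b is a near copy of Psme2, so reads could be split between them, and it overlaps the end of 9930111J21Rik1 on the same strand. In CD8 T cells that gene stood at a mean of 6.05 CPM in controls and 5.14 with IL-2/CD25. It was not called there (-0.06, edgeR adjusted p = 0.977). How reads are shared between these genes was not tested, so the Psme2b level is uncertain.

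Psma8, an alpha subunit best known from testis, was passed by the low-count filter only in tumour-like cells. It had 279 of 167254415 summed UMIs there in controls, a mean over samples of 2.03 CPM. With IL-2/CD25 it had 0 of 1950941, which allows up to 1.54 CPM by the limit of 3 counts. Control monocytes and macrophages held 163 Psma8 UMIs of 76756758 and control cDC2 17 of 6617235. These shares are no smaller than that of control tumour-like cells, so the gene was not particular to them. Control CD8 T cells held 0, which allows up to 0.846 CPM. Psmb11, the subunit of the thymus cortex, was tested in no class and had at most 6 UMIs in any class and group.

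Genes that work with the proteasome were followed from lists outside the family. Of the assembly factors and partners, 10 of 14 tested fell in monocytes and macrophages (background 26.9%), 9 of 14 in CD8 T cells (27.5%) and 8 of 14 in NK cells and ILC1 (21.1%). Pomp, the factor that joins half-cores into the full core, went from a mean of 382 to 155 CPM in CD8 T cells (log2 change -1.35). Uchl5, a deubiquitinase of the cap, changed by -1.33 there and by -1.29 in mature dendritic cells. Of the genes tied to the transcriptional feedback on proteasome supply, Nfe2l2 rose in monocytes and macrophages (137 to 315 CPM, 1.07) and neutrophils (1.00), and the heat shock genes Hspa1a and Hspa1b fell in both. Ubb, a polyubiquitin gene, fell in 10 of the 11 immune classes, by 0.37 in neutrophils and 0.93 in cDC2.

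The peptide-loading genes of MHC class I, which use what the proteasome makes, were called higher as follows: 8 of 12 in neutrophils (background 26.8%) and 8 of 12 in monocytes and macrophages (27.3%). B2m, the MHC class I light chain, went from 609 to 1919 CPM in neutrophils (1.44), and Tap1, the neighbour that shares its start region with Psmb9, from 35.9 to 95.7 CPM (1.20). In CD8 T cells Tap1 fell (173 to 123 CPM, -0.53) while B2m rose (0.35). Of the genes of the interferon gamma axis, 14 of 18 rose in monocytes and macrophages (background 27.3%), 11 of 15 in neutrophils (26.8%) and 8 of 17 in CD8 T cells (28.4%). All 15 proliferation genes fell in NK cells and ILC1 (21.1% of all genes), and all 15 in CD8 T cells (27.5%).

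Other measures also differed between the groups, and their part in the fall of the constitutive subunits was not tested. The estimated share of free RNA (RNA of other cells caught in the droplet) in a tested class was 5.95 to 20.9% in controls and 2.34 to 14.3% with IL-2/CD25. The summed neutrophil markers in NK cells and ILC1, which should lack them, were at 1127 CPM in controls and 160.0 with IL-2/CD25, and in monocytes and macrophages at 1853 and 298. Nras, carried by the plasmid, stood at 196 CPM in control neutrophils and 44.8 in those with IL-2/CD25. The median mitochondrial share per cell was 1.39 to 1.40% in control and 1.71 to 2.12% in IL-2/CD25 libraries. The nuclear RNA Malat1 took a median over the immune classes of 2.18 and 2.75% of UMIs, and unnamed gene models 1.89 and 2.68%. By class, the mitochondrial share was lower with IL-2/CD25 in NK cells and ILC1, neutrophils (1.09 to 0.79%), mature and plasmacytoid dendritic cells. Malat1 was lower in neutrophils (3.59 to 2.96%) and plasmacytoid dendritic cells, and level in monocytes and macrophages (1.64 and 1.64%). Each was higher in the other immune classes. Dividing cells went from a mean of 38.3 to 11.2% in monocytes and macrophages and from 64.1 to 34.6% in cDC1. After subtraction of the estimated free RNA, 31 of 31 constitutive subunits fell in CD8 T cells (2717 of 10814 genes called lower). In monocytes and macrophages 30 of 31 fell (2156 of 9254 genes), but 18 of 31 in neutrophils (median -0.42, 1543 of 6651 genes). In plasmacytoid dendritic cells 3 of 31 fell (331 of 8349 genes). Control sample 3 was the deepest library as a whole. Among the controls it held the fewest summed UMIs in CD4 T cells (133099) and plasmacytoid dendritic cells (204786). Without it, the members called in either direction numbered 9 in CD4 T cells, 13 in other T cells and 16 in B cells. They numbered 9 in mature and 2 in plasmacytoid dendritic cells. With all samples these 5 counts were 19, 25, 31, 17 and 10. Calls over all genes dropped as well. Genes called lower without control sample 3 numbered 290 of 9897 in CD4 T cells, against 511 of 9490 with all samples. In other T cells they numbered 568 of 12304 against 1092 of 11953, and in B cells 750 of 9971 against 1294 of 9617. In mature dendritic cells they numbered 368 of 5308 against 562 of 4910, and in plasmacytoid dendritic cells 362 of 9557 against 514 of 8604. Without control sample 1 the members called numbered 5 in CD4 T cells and 3 in plasmacytoid dendritic cells. Of all genes, 145 of 10020 and 300 of 9519 were then called lower in these 2 classes.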

How the data were processed

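The deposited files hold raw counts of UMIs per gene and cell barcode for each of 7 samples, made with bcl2fastq 5.0.1 and Cell Ranger 7.0.0 per the submitters' processing notes (the build was not given in the sources used here). Cells with at least 500 UMIs, 200 genes and under 20% mitochondrial UMIs were kept, called doublets (5.8 to 8.35% per sample) were removed, and each cell was assigned to a class by fixed marker genes or left out as mixed (3854 cells) or ungated (2805 cells). Counts were summed per sample and class where a sample had at least 20 cells.

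Sums were tested with edgeR 4.0.16 in R 4.3.3 (quasi-likelihood, TMM, filterByExpr), with Benjamini-Hochberg adjustment over all genes of a class and a threshold of 0.05; class contrasts kept the sample as a block. The procedure was tested on simulated data. Alternatives were DESeq2 1.42.0, other scalings and filters, thinned libraries, samples left out, doublets kept, stricter cells or gates, non-dividing cells, free RNA subtracted and the replicate number as a block. Scaling by summed UMIs and the fits over immune classes alone were chosen after seeing the data. All members were accounted for; those named were the immune members, Psmb5 to Psmb7 and, per class, up to 3 others with the largest change, a mean of 20 CPM and no overlap. From other lists, up to 4 genes per class and direction were named. Members, lists and markers were chosen with earlier results of these data known. Intervals and floors cover counting error only. Same-numbered samples shared only a number: their deviations correlated by -0.092 to 0.111.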

Additional observations from a re-analysis of the deposited data

Results flagged for a closer look

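For 4 of the 99 levels tested, 1 of the 4 IL-2/CD25 samples stood apart from the other three, measured by its gap over the group's range, and the gap passed Dixon's 95% critical value, which chance passes in about 1 in 20 groups. The gaps were 0.857 for Psmb9 and 0.902 for Psmb5 in CD8 T cells, 0.848 for Psme2 in other T cells and 0.909 for Psmb7 in mature dendritic cells.

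The effect of IL-2/CD25 on an immune member differed between a class and the mean of the other 11, tumour-like cells included (edgeR, adjusted over all genes), in 23 cases. In CD8 T cells the log2 difference was -1.30 for Psmb9, -0.84 for Psmb8, -0.80 for Psme2, -0.43 for Psmb10 and -0.41 for Psme1. In NK cells and ILC1 it was -0.84 for Psmb9, -0.59 for Psme1, -0.43 for Psme2 and -0.32 for Psmb8. In neutrophils it was 1.48 for Psmb8, 1.39 for Psmb9 and 0.76 for Psme2. In monocytes and macrophages Psmb9 differed by 0.39, and in B cells Psme1 by -0.42. Psmb8 differed by -0.55 in cDC1 and -0.51 in cDC2, Psme1 by 0.51 in mature dendritic cells, and Psmb10 by 0.90 in plasmacytoid dendritic cells. In tumour-like cells the differences were 2.14 for Psmb9, 1.45 for Psmb8, 1.07 for Psme1, 0.39 for Psme2 and -1.87 for Psmb10. Without tumour-like cells in the fit, the differences of Psmb8 in NK cells and ILC1 (-0.23) and of Psme1 in B cells (-0.22) were not called, while those of Psme2 in plasmacytoid dendritic cells (0.45) and Psmb9 in mature dendritic cells (0.47) were.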

How the results depend on the processing

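The number of members called changed in non-dividing cells to 20 in NK cells and ILC1, 6 in CD4 T cells and 11 in other T cells, with free RNA subtracted to 9 in CD4 T cells, 20 in B cells and 4 in plasmacytoid dendritic cells, in thinned libraries to 11 in CD4 T cells and 6 in plasmacytoid dendritic cells, and in mature dendritic cells to 11 with DESeq2 and 11 without the low-count filter. With 1 sample left out, the counts ranged from 5 to 22 in CD4 T cells, 13 to 30 in other T cells, 16 to 32 in B cells, 9 to 16 in mature dendritic cells and 2 to 13 in plasmacytoid dendritic cells, where control samples 1 and 3 decided the lowest values. With all samples these counts were 34 in NK cells and ILC1, 19 in CD4 T cells, 25 in other T cells, 31 in B cells, 17 in mature dendritic cells and 10 in plasmacytoid dendritic cells. Calls over all genes dropped too: in non-dividing cells 140 of 8030 genes were lower in CD4 T cells, against 511 of 9490. In other T cells 608 of 11394 were, against 1092 of 11953. With free RNA subtracted 173 of 9421 were lower in CD4 T cells, 746 of 9269 in B cells and 331 of 8349 in plasmacytoid dendritic cells. In thinned libraries 230 of 2704 were lower in CD4 T cells and 251 of 4016 in plasmacytoid dendritic cells. In mature dendritic cells 374 of 4910 were lower with DESeq2 and 662 of 16757 without the low-count filter. The difference in immune share, in percentage points, changed with free RNA subtracted to 2.14 in NK cells and ILC1, 4.29 in CD4 T cells, 2.57 in other T cells, 1.29 in B cells, 11.6 in monocytes and macrophages, 3.47 in cDC2 and -2.60 in plasmacytoid dendritic cells, in non-dividing cells to 2.50 in NK cells and ILC1, 3.71 in CD8 T cells and 3.41 in cDC2, with doublets kept to 2.06 in plasmacytoid dendritic cells, and ranged from -0.223 to 1.59 in plasmacytoid dendritic cells with 1 sample left out. With the replicate number as a replicate block, 39 members were called in CD8 T cells, 39 in monocytes and macrophages, 35 in NK cells and ILC1, 31 in B cells, 29 in other T cells, 19 in CD4 T cells, 35 in neutrophils, 34 in cDC2, 31 in cDC1, 18 in mature dendritic cells, 10 in plasmacytoid dendritic cells and 38 in tumour-like cells. Of all genes, 2701 of 10535 were then lower in CD8 T cells and 2698 of 13118 in monocytes and macrophages. In NK cells and ILC1 2604 of 12262 were, in B cells 1123 of 8567 and in other T cells 1060 of 10425. In CD4 T cells 466 of 8139 were, in neutrophils 2395 of 9868 and in cDC2 1897 of 9332. In cDC1 1293 of 9787 were and in mature dendritic cells 564 of 4972. In plasmacytoid dendritic cells 417 of 7334 were and in tumour-like cells 3788 of 15477. 

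Changes that crossed 0 were not called under the main settings. Psmb10 in neutrophils (-0.25) gave 0.61 (free RNA subtracted). Psmb10 in plasmacytoid dendritic cells (0.10) gave -0.15 (thinned libraries) and -0.0434 to 0.26 with 1 sample left out. Psmb7 in mature dendritic cells (-0.08) gave 0.0193 (free RNA subtracted) and -0.16 to 0.087 with 1 sample left out. Psmb7 in plasmacytoid dendritic cells (-0.10) gave 0.27 (free RNA subtracted), 0.0043 (thinned libraries) and -0.28 to 0.14 with 1 sample left out. Psmb8 in tumour-like cells (0.59) gave -0.74 (non-dividing cells). Psmb9 in cDC1 (-0.10) gave 0.0255 (non-dividing cells). Psme1 in cDC1 (-0.05) gave -0.13 to 0.0128 with 1 sample left out. Psme1 in neutrophils (0.01) gave -0.0182 (no filter on low counts), -0.0171 (doublets kept), -0.0076 (stricter cells) and -0.0534 to 0.15 with 1 sample left out. Psme2 in CD4 T cells (0.05) gave -0.089 (replicate block) and -0.0898 to 0.17 with 1 sample left out. Psme2 in plasmacytoid dendritic cells (0.08) gave -0.0545 (replicate block), -0.0223 (doublets kept) and -0.0579 to 0.20 with 1 sample left out. Psme2 in tumour-like cells (-0.21) gave 0.65 (summed-UMI scaling), 0.0746 (free RNA subtracted) and 0.22 (thinned libraries). The cause was not tested. Depth was lower in the IL-2/CD25 libraries as a whole, but not in every class. Median UMIs per cell were 3565 to 4898.5 with IL-2/CD25 and 3555 to 4109.5 in controls in CD4 T cells. In plasmacytoid dendritic cells they were 6317 to 7698 and 3504.5 to 5270.5. The control samples held 128 CD4 T cells, 136 mature and 160 plasmacytoid dendritic cells in all, which limits the precision of these classes.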

Other observations

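Classes with too few cells in at least 1 of the groups for a comparison between groups gave these immune shares of active-site UMIs. Hepatocyte-like cells of the IL-2/CD25 samples were at 16.5% ± 5.50 (SD over 4 samples), and endothelial cells at 54.1% ± 3.96 over 2 samples. Control basophils or mast cells were at 37.4 to 64.8% in 2 samples. The erythroid cells of 1 control sample were at 24.8% and those of 1 IL-2/CD25 sample at 65.4%. Free RNA was estimated at 42.1 and 34.9% of their UMIs, so these shares are uncertain. Stellate cells and fibroblasts of 1 control sample were at 20.3%, beside control tumour-like cells (23.5% ± 2.83).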
